A study of Mus musculus with 20 samples.

Results

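The nuclear genes of oxidative phosphorylation were taken as the protein-coding genes whose symbols begin with Ndufa, Ndufb, Ndufc, Ndufs or Ndufv, with Uqcr, with Cox4 to Cox8 or with Atp5, together with Sdha, Sdhb, Sdhc and Sdhd. The naming rule gave 88 of the 43346 genes in the table. It left out 4 further genes of matching name, of which 3 lie between 78000000 and 82500000 on chromosome 10 (mm10), the stretch around Abca7. By the complex in which the protein is known to sit, 34 of the 88 genes belong to complex I, 4 to complex II, 7 to complex III, 20 to complex IV and 14 to ATP synthase. The other 9 are the complex I assembly factors Ndufaf1 to Ndufaf7 and the related genes Atp5s and Atp5sl, which the name pattern also takes. Expression was tested for 87 of the 88, and Cox8c, which had at most 1 count in any library and 0 in 17 of 20, could not be tested.

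The RNA came from cortex of mice on the 5xFAD background, an amyloid model in which mutant human transgenes known from inherited Alzheimer's disease are driven in neurons by the Thy1 promoter. All animals were 5xFAD+/- and, per the labels' protocol, male littermates. The groups were knockin of the Abca7 A693S substitution (KI) at 10 months, control with wild-type Abca7 at 10 months, KI at 3 months and control at 3 months, with 5 libraries each. The protocol mentions animals with 1 and with 2 knockin alleles, and the group label KI does not separate them, so KI may mix them. No mice without the 5xFAD transgenes were among the samples, so amyloid background is common to every group.

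Oxidative phosphorylation takes place in the inner mitochondrial membrane. Complexes I and II pass electrons from NADH and succinate to coenzyme Q, complex III passes them to cytochrome c, complex IV passes them to oxygen, and ATP synthase uses the proton gradient that complexes I, III and IV build up. Each complex except complex II also contains subunits encoded by mitochondrial DNA, and neurons, with their ion pumping and synaptic activity, depend heavily on the pathway.

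Library totals ran from 42896149 to 57447015 counts, and all mitochondrially encoded genes were listed at 0, so only the nuclear subunits can be described. Markers of cortical excitatory neurons were present in every library, with summed levels of 8615 to 10301 CPM (counts after scaling every library to the same size). The thalamic gene Shox2 exceeded 50 counts in all 5 KI and in 2 control libraries at 3 months (replicates 8 and 10) and in no library at 10 months. KI replicate 5 at 10 months had 54206 counts of Xist and 1 of Ddx3y, whereas the other 19 libraries had at most 218 of Xist and at least 2382 of Ddx3y, which goes against its label as male. KI replicate 3 at 3 months stood apart in the oxidative phosphorylation genes themselves, being the lowest of the 20 libraries for 46 of 87 of them (52.9%) and for 21.4% of all tested genes. KI replicate 5 at 10 months was the highest of the 20 libraries for 29 of 87 (33.3%) and for 12.6% of all tested genes. In bulk RNA, fewer cells of a type and less RNA per cell cannot be told apart. Whether every library is from its own animal is not stated, so a p-value sets a difference against the scatter of these libraries, which could be technical.

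As a group, the 88 genes were abundant in cortex and took between 0.795% and 1.01% of all counts in a library. ATP synthase genes made up the largest part, with a median of 0.334% of counts, while the 9 assembly and related genes made up 0.0204%. Levels between genes were compared as mean CPM over the 20 libraries per kilobase of the gene length in the deposited table. On that scale the highest gene was Ndufa4, at 438.8 CPM per kilobase, which was long assigned to complex I and is now known as a subunit of complex IV. Ndufb9, an accessory subunit in the membrane arm of complex I, led complex I at 190.4, and Ndufb7 was its lowest at 5.22. In complex II the flavoprotein Sdha stood at 120.4, above the membrane anchor Sdhc at 27.8. In complex III the hinge protein gene Uqcrh stood at 136.9 and Uqcrq, a small subunit, at 14.9. The catalytic beta subunit Atp5b led ATP synthase at 258.6, and Atp5g2, 1 of 3 genes for the c ring, was the lowest at 13.5. The assembly factors were low throughout, between 5.07 for Ndufaf6 and 19.2 for Ndufaf7. These ranks depend on the length used. With the median length of each gene's coding transcripts in the GENCODE annotation, Atp5b was the highest gene of all, at 571.8, above Ndufa4 at 469.3 CPM per kilobase. Sdhd took the place of Sdhc as the lowest of complex II, at 63.5. Ndufs1 became the highest gene of complex I, at 280.3, and Ndufb4 its lowest, at 16.4. The GENCODE median for Ndufs1 was 651 bases, against 8086 bases deposited, so its rank rests on that short length.

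**Figure D1:**
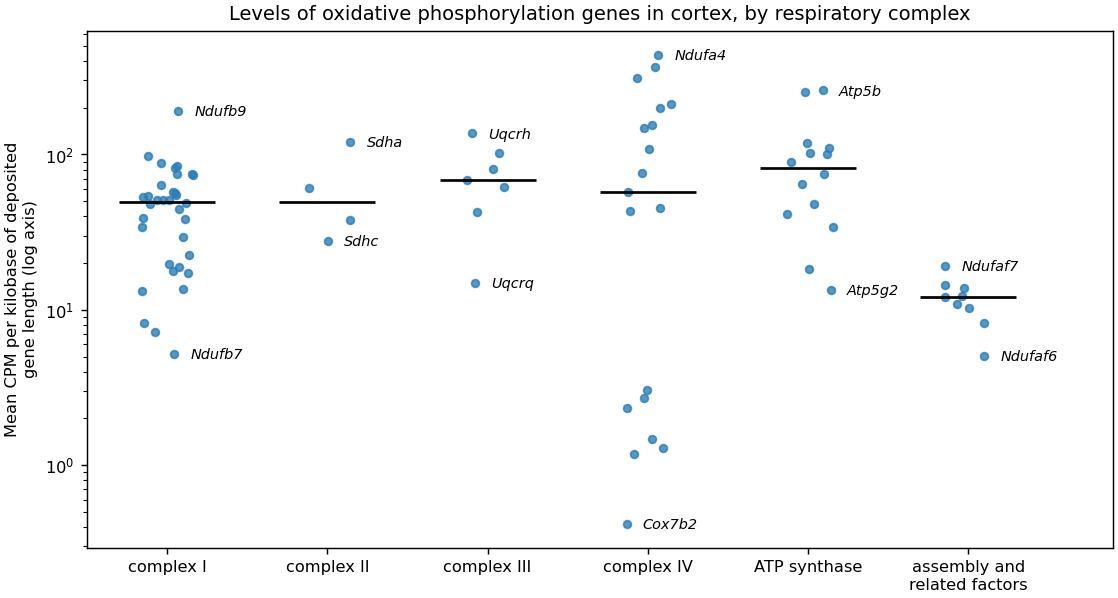
Mean CPM over 20 libraries per kilobase of deposited gene length (log axis) for each oxidative phosphorylation gene with at least 10 counts in some library, by complex, with the median as a bar and the highest and lowest gene named. Complex IV spans the widest range, with Ndufa4 at 438.8 and the isoform Cox7b2 at 0.418 CPM per kilobase.

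The wide range of complex IV came from isoform pairs, in which a gene used broadly has a relative known from muscle, testis or particular cell types. Per kilobase, Cox4i1 exceeded Cox4i2, the isoform known from lung and pericytes, by a median of 135-fold over the 20 libraries. Cox6a1 exceeded the heart and muscle isoform Cox6a2 by 55.3-fold, and Cox7a2 exceeded the muscle isoform Cox7a1 by 72.7-fold. The median ratio was 370-fold for Cox8a over the muscle isoform Cox8b, and ran from 69.8-fold to 1837-fold among libraries, since Cox8b had few counts and varied. Ndufa4 exceeded its hypoxia-inducible relative Ndufa4l2 by 309-fold, Cox6b1 exceeded the testis isoform Cox6b2 by 164-fold, and Cox7b exceeded the testis isoform Cox7b2 by 244-fold. The 3 c ring genes, which encode the same mature protein, were closer in level: Atp5g3 exceeded Atp5g1 by 5.29-fold and Atp5g2 by 7.98-fold. The main isoform was therefore the higher gene in every pair and every library, under both gene lengths for the ratio of means.

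The first comparison asked what differed between KI and control at 3 months. Summed thalamic markers ran from 163 to 327 CPM in these KI libraries and from 116 to 244 CPM in control. The part of thalamic tissue in this comparison was not tested. None of the 87 genes was called in KI against control, where 0.0255% of all tested genes were called at an adjusted p under 0.05 (edgeR quasi-likelihood test with Benjamini-Hochberg adjustment over 19623 genes). None reached an unadjusted p under 0.05 either (2.47% of all genes did so in the higher and 1.32% in the lower direction), and DESeq2 and limma-voom called 0. The median log2 fold change was 0.01, and 51 of 87 genes lay above 0 (58.6%, against 52.4% of all genes). The member with the smallest p was Atp5sl, a protein known to help assemble the distal membrane arm of complex I. Atp5sl had 25.1, 33.6, 35.8, 34.4 and 36.6 CPM in the KI libraries, against 34.9, 40.3, 36.9, 37.1 and 38.1 CPM in the control libraries, a log2 fold change of -0.18 ± 0.10 (SE, unadjusted p = 0.0947). The groups overlapped, and the lowest value was that of KI replicate 3. In the other complexes the smallest p belonged to genes with log2 differences no larger than 0.22: Ndufs4 in complex I (0.06 ± 0.06), the anchor subunit Sdhd in complex II (0.06 ± 0.06), Uqcrh in complex III (0.08 ± 0.07), Cox6a2 in complex IV (0.22 ± 0.20) and Atp5b in ATP synthase (0.04 ± 0.05).

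At 10 months the differences leaned upward without passing the test. Again 0 of 87 genes were called in KI against control, where 0.0612% of all tested genes were called, and DESeq2 and limma-voom called 0. The log2 fold change was above 0 for 68 of 87 genes (78.2%, against 50% of all genes), with a median of 0.07, and 15 genes (17.2%) had an unadjusted p under 0.05 in the higher direction, against 4.53% of all genes, with 0 in the lower direction, against 3.33%. These genes share their libraries, so they are not separate observations of a shift. By complex, 27 of 34 genes of complex I, 4 of 4 of complex II, 5 of 7 of complex III, 13 of 19 of complex IV, 11 of 14 of ATP synthase and 8 of 9 assembly and related genes lay above 0. Other lists leaned in the same comparison, with 0 called genes. All 10 microglial markers (median 0.11) and all 7 oligodendrocyte markers (median 0.15) lay above 0, and none of 16 choroid plexus markers did (median -0.89). Of 79 cytosolic ribosomal protein genes 61 lay above 0 (median 0.08), as did 364 of 635 other coding genes under 1000 bases (median 0.04). The part of these in the lean of the pathway genes was not tested.

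Ndufa4 had the smallest p at 10 months. It had 244.6, 246.2, 285.1, 229.0 and 216.5 CPM in the KI libraries, against 213.9, 213.5, 215.2, 231.1 and 189.5 CPM in the control libraries, a log2 fold change of 0.20 ± 0.07 (SE, adjusted p = 0.439 in edgeR). The groups overlapped, and all 5 KI libraries stood above 4 of the 5 controls, with the highest value in KI replicate 5. Cox5a, a structural subunit of complex IV, had 117.2, 127.1, 132.8, 113.9 and 105.4 CPM in KI, against 110.5, 106.9, 94.2, 106.3 and 97.9 CPM in control (log2 0.21 ± 0.07, adjusted p = 0.441). KI replicate 7 fell within the control range, and the other 4 KI libraries lay above it. Atp5c1, the gamma subunit that turns inside ATP synthase, differed by 0.18 ± 0.06 on the log2 scale (adjusted p = 0.441). The smallest p in complex I belonged to the core subunit Ndufs3 (log2 0.14 ± 0.05), in complex II to Sdhd (0.11 ± 0.06), in complex III to Uqcrh (0.17 ± 0.07) and among the assembly factors to Ndufaf5 (0.18 ± 0.07), with adjusted p-values of 0.536 to 0.653. Atp5b was the 1 gene whose KI libraries, at 1122 to 1191 CPM, all exceeded the control libraries, at 977 to 1118 CPM (1.15% of the 87 genes, against 0.907% of all genes). The gap between those groups was 1122 against 1118 CPM, and its log2 fold change was 0.11 ± 0.05 (adjusted p = 0.579).

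Apart from Cox5a and Ndufs3, given above, the core subunits described here differed by 0.12 or less on the log2 scale at 10 months. Ndufs1 and Ndufv1, which hold iron-sulfur clusters and the NADH site of complex I, had log2 fold changes of 0.00 ± 0.07 and 0.05 ± 0.14. Sdha had 0.05 ± 0.04, and Sdhb, the iron-sulfur subunit of complex II, 0.02 ± 0.10. Uqcrc1, a core protein of complex III, had 0.03 ± 0.11, whereas the Rieske iron-sulfur protein gene Uqcrfs1 had 0.12 ± 0.05. Cox4i1, a nuclear subunit that regulates complex IV, had 0.07 ± 0.14, and the catalytic frame of ATP synthase, Atp5a1, had 0.07 ± 0.06. None of these passed the test, and the standard errors of Ndufv1, Cox4i1 and Uqcrc1 were more than 2 times that of Sdha, which had the tightest values of the core subunits (469.9 to 494.7 CPM in KI and 457.9 to 471.9 CPM in control at 10 months).

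Averaged over both ages, KI against control called 0 of 87 genes, where 0.0764% of all tested genes were called, with 9 genes (10.3%) at an unadjusted p under 0.05, against 3.94% of all genes in the same direction. In that average 65 of 87 genes lay above 0 (74.7%, against 51.4% of all genes). The genotype by age interaction, which tests whether the age difference differed between KI and control, called 0 of 87 genes and 0 of all genes (0%). Its log2 fold change was above 0 for 66 of 87 genes (75.9%, against 48.9% of all genes), which share their libraries. An unadjusted p under 0.05 was found for 1 gene (1.15%), against 2.15% of all genes in the same direction. It was Atp5sl, at 0.39 ± 0.14 on the log2 scale (unadjusted p = 0.0135). No difference between KI and control in what age did to any single one of these genes was therefore detected at this number of libraries.

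**Figure D2:**
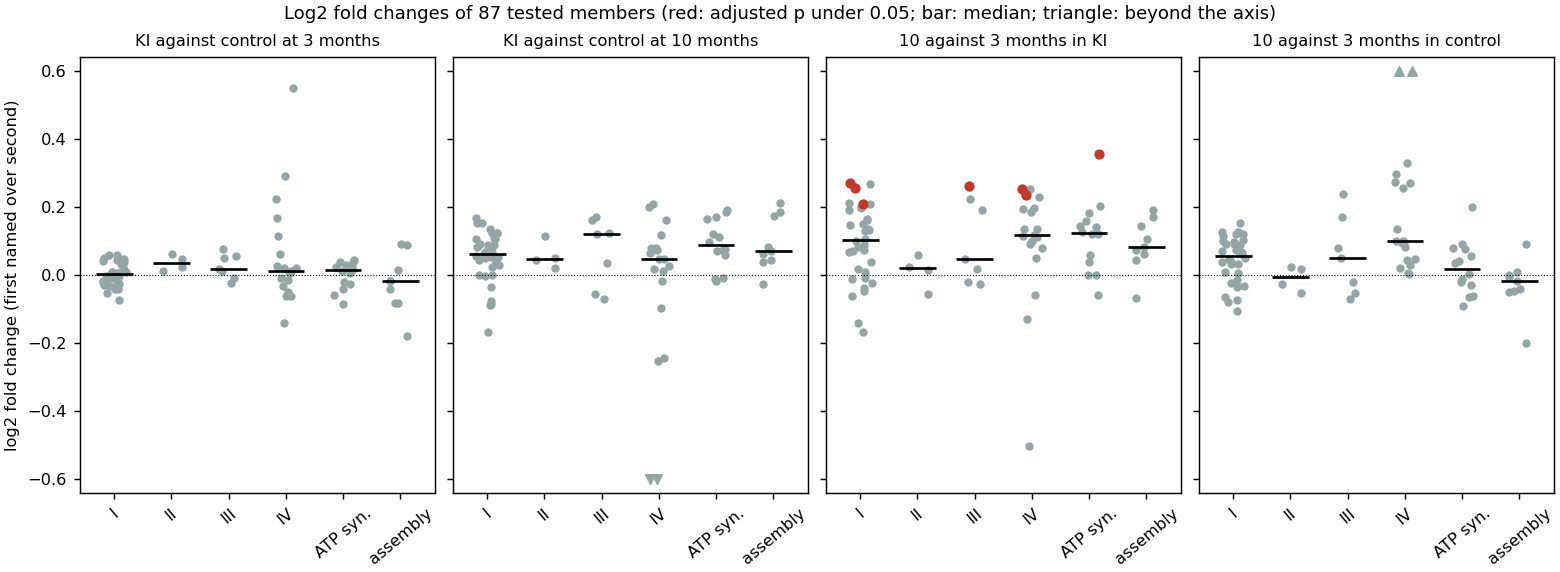
Log2 fold changes of the 87 tested genes by complex in 4 comparisons, the group named first over the second. Points are genes, bars are medians, red points have an adjusted p under 0.05, and triangles lie beyond the axis. The 7 red points, all above 0, are in 10 against 3 months in KI.

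Age in KI was the comparison in which members of the pathway were called. At 10 against 3 months in KI, 7 of 87 genes rose and 0 fell (8.05%), where 5.66% of all tested genes rose, 2.41% fell and 8.06% changed in either direction. The share was thus close to that of all genes. The 7 were Ndufa5, Ndufb5 and Ndufb9 of complex I, Uqcrh of complex III, Cox7a2 and Ndufa4 of complex IV, and Atp5e of ATP synthase, with 1.16-fold to 1.28-fold increases. Of all 87 genes, 71 lay above 0 (81.6%, against 49.3% of all genes), with a median log2 fold change of 0.11. KI at 10 months is the same set of libraries as in the genotype comparison at 10 months, so the upward lean in both is not independent.

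Atp5e, the epsilon subunit in the central stalk of ATP synthase, had the largest change of the 7 called genes. It had 73.4, 70.3, 68.9, 65.9 and 63.3 CPM in KI at 10 months, against 42.8, 49.5, 53.8, 59.7 and 61.0 CPM in KI at 3 months, a log2 fold change of 0.36 ± 0.09 (SE, edgeR adjusted p = 0.0132). The groups did not overlap, and the lowest value was KI replicate 3 at 3 months. Uqcrh, whose hinge protein sits where complex III hands electrons to cytochrome c, had 191.8, 200.8, 221.7, 182.1 and 167.5 CPM in KI at 10 months, against 164.6, 160.1, 162.1, 154.8 and 162.3 CPM in KI at 3 months (log2 0.26 ± 0.07, adjusted p = 0.0333). Its 3-month libraries lay close together, and the 10-month libraries lay above them with a wide spread. Cox7a2, the broadly used isoform of a small complex IV subunit, had 180.8, 187.9, 192.3, 171.1 and 160.6 CPM in KI at 10 months, against 134.3, 145.6, 156.0, 151.2 and 163.1 CPM in KI at 3 months (log2 0.25 ± 0.07, adjusted p = 0.020). The highest library at 3 months, replicate 7, lay above the lowest at 10 months, also replicate 7. Ndufa4 had the same 5 libraries at 10 months as above, against 198.8, 199.5, 211.0, 210.5 and 218.4 CPM in KI at 3 months (log2 0.23 ± 0.07, adjusted p = 0.0316). Its groups overlapped by the same pair of libraries as those of Cox7a2.

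The 3 called genes of complex I are accessory subunits. Ndufb5, in the membrane arm, averaged 94.0 ± 5.22 CPM in KI at 10 months and 81.4 ± 1.25 CPM in KI at 3 months (SD, n = 5 each), a log2 fold change of 0.21 ± 0.06 (adjusted p = 0.0211 in edgeR). Ndufb9, also in the membrane arm, averaged 138.0 ± 9.62 CPM at 10 months and 115.7 ± 8.49 CPM at 3 months (log2 0.25 ± 0.07, adjusted p = 0.0266 in edgeR). Ndufa5, in the arm that reaches into the matrix, averaged 64.3 ± 6.69 CPM at 10 months and 53.4 ± 1.49 CPM at 3 months (log2 0.27 ± 0.08, adjusted p = 0.0333 in edgeR). All 3 had every 10-month library above every 3-month library, though for Ndufb9 only by 123.3 against 123.1 CPM. In all, 5 genes were separated in this way (5.75%, against 5.34% of all genes). Just outside the threshold lay Cox5a, at 0.23 ± 0.07 (adjusted p = 0.0520). Ndufb9 shares 23.4% of its transcript sequence, read in stretches of 50 bases, with an overlapping gene, Ndufb5 shares 8.98% with Mrpl47 and Uqcrh 7.14% with a processed pseudogene, so part of their counts could be assigned elsewhere. No such sharing was found for Atp5e, Cox7a2, Ndufa4 or Ndufa5.

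**Figure D3:**
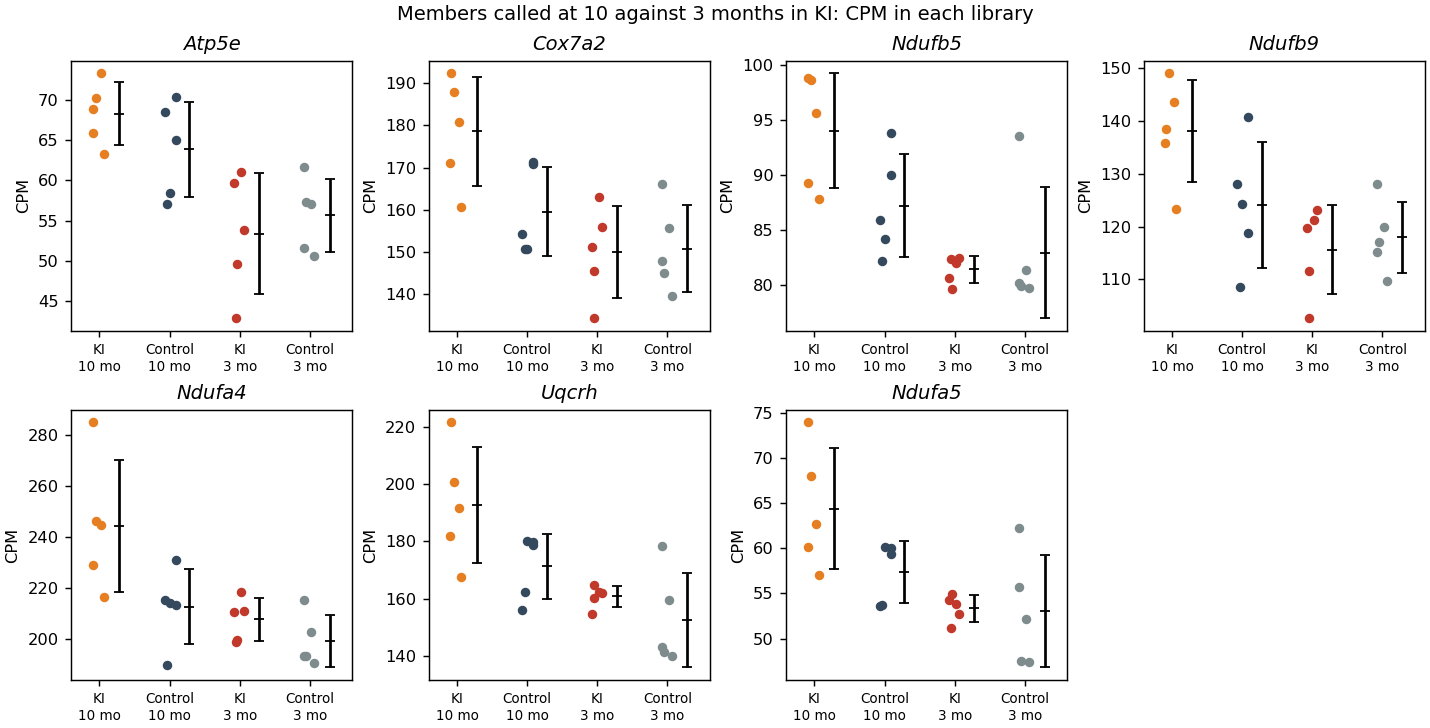
CPM of the 7 genes called at 10 against 3 months in KI, in each of the 20 libraries (points), with the mean and SD of each group of 5 beside them. The axes do not start at 0. KI at 10 months is highest on average in each panel, and its libraries overlap those of control at 10 months.

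The count of called genes rested on few libraries. Without KI replicate 3 at 3 months and KI replicate 5 at 10 months, the libraries that stood apart, 1 of the 7 genes was called and the median log2 fold change was 0.05, with 56 of 87 genes above 0. Leaving out 1 library at a time gave between 1 called gene, without KI replicate 4 at 3 months, and 9, without KI replicate 7 at 10 months. It gave 2 without KI replicate 4 at 10 months, 3 without KI replicate 5 at 3 months, and 4 without KI replicate 5 at 10 months or KI replicate 6 at 3 months. With only the KI libraries in the fit 0 genes were called, and with no filter on low counts 2 were. Other measures moved with age in KI as well. Of the thalamic markers, 10 of 11 fell (2.41% of all tested genes did), and their summed level was 109 to 131 CPM at 10 months and 163 to 327 CPM at 3 months. Of the microglial markers, 8 of 10 rose (5.66% of all tested genes did), and their summed level was 870 to 1148 CPM at 10 months and 344 to 391 CPM at 3 months. The part of these cells in the result was not tested, and thalamic tissue content and age in KI cannot be told apart.

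A RefSeq promoter was matched for 6 of the 7 called genes, all except Ndufb9. Those of Cox7a2, Ndufb5 and Ndufa4 held 0 matches to the NRF1, ETS and YY1 motifs described here, and those of Atp5e, Uqcrh and Ndufa5 are shown because they held 1 each. Each runs from 250 bases before to 50 bases after the transcript start in RefSeq (GRCm38.p6). For Ndufa5, which has 2 listed starts, 1 is shown. Atp5e is at chr2:174464052-174464351, Uqcrh at chr4:116075021-116075320 and Ndufa5 at chr6:24527641-24527940, all on the minus strand. Capitals mark a match to CCGGAAG or its reverse complement CTTCCGG, the core bound by ETS factors such as GABP, in Atp5e and Uqcrh, and a match to the NRF1 consensus in Ndufa5, NRF1 being a factor that binds GC-rich palindromic sites. GABP and NRF1 are known for binding nuclear genes of the respiratory chain.
Atp5e promoter: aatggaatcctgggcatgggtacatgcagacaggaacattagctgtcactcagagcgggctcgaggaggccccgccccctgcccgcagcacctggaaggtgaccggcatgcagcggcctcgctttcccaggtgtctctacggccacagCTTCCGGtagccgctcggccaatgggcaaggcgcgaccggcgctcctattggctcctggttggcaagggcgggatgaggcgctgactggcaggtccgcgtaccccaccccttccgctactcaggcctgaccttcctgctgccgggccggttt
Uqcrh promoter: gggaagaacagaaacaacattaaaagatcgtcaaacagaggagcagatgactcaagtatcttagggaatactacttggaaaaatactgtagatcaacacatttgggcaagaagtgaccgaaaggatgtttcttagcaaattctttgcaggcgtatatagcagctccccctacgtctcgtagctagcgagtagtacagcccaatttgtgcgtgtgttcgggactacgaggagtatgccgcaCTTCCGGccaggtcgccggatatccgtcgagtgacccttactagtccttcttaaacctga
Ndufa5 promoter: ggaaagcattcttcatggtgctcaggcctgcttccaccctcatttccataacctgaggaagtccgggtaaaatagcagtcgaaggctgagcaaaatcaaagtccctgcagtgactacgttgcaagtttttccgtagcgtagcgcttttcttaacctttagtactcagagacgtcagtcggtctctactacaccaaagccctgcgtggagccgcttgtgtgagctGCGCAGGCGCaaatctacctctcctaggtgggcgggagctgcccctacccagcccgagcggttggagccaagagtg

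Of the 88 genes, 72 could be matched to a RefSeq promoter by symbol. On either strand, the NRF1 consensus was found in 19 of the 72 (26.4%) and in 7.17% of 17492 protein-coding genes. The ETS motif CCGGAAG was found in 22.2% of the 72 and in 12.9% of coding genes, and the YY1 consensus in 5.56% and 1.63%. TATAAA was found in 8.33% of the 72 and in 14.8% of coding genes. By complex, NRF1 matches were found in 6 of 13 ATP synthase, 7 of 30 complex I, 2 of 3 complex II, 1 of 4 complex III and 1 of 14 complex IV promoters, and in 2 of 8 of the assembly and related genes. A match describes letters in this window and is no measure of binding, and the pathway promoters had a median GC content of 58.4%, against 56.3% for coding genes.

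In control mice the same age comparison called none of the pathway genes. At 10 against 3 months in control, 0 of 87 genes were called, where 4.07% of all tested genes were called, and DESeq2 and limma-voom called 0. The log2 fold change was above 0 for 61 of 87 genes (70.1%, against 49% of all genes), so control leaned upward with age as well. Unadjusted p-values under 0.05 were found for 3 genes (3.45%, against 9.45% of all genes in the higher direction): Cox7a2l, Atp5e and Uqcrh. Cox7a2l, which helps link complexes III and IV into supercomplexes, averaged 96.3 ± 7.89 CPM in control at 10 months and 79.6 ± 8.61 CPM in control at 3 months (SD, n = 5 each), a log2 fold change of 0.27 ± 0.10 (adjusted p = 0.182 in edgeR). In KI its log2 fold change was 0.25 ± 0.10 (adjusted p = 0.146). Atp5e had 58.4, 65.0, 68.5, 70.5 and 57.1 CPM in control at 10 months, against 51.6, 57.3, 50.5, 57.1 and 61.6 CPM in control at 3 months, a log2 fold change of 0.20 ± 0.09 (adjusted p = 0.300). The direction was that seen in KI, with overlapping groups. Microglial markers rose with age in control as well (8 of 10), with summed levels of 708 to 946 CPM at 10 months and 311 to 385 CPM at 3 months. For all 7 genes called in KI, the log2 fold change in control was above 0, between 0.07 and 0.20, and the interaction p of each missed the threshold, so the age differences in KI and in control were not shown to differ.

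Across the complexes, the age differences in KI were of similar small size. The median log2 fold change at 10 against 3 months in KI was 0.10 for complex I (26 of 34 above 0), 0.02 for complex II (3 of 4), 0.05 for complex III (5 of 7), 0.12 for complex IV (16 of 19), 0.12 for ATP synthase (13 of 14) and 0.08 for the assembly and related genes (8 of 9). All 12 main isoforms of complex IV lay above 0. In control the medians were 0.06, -0.01, 0.05, 0.10, 0.02 and -0.02 in the same order. The share of all counts taken by the 88 genes averaged 0.972% ± 0.0441 in KI at 10 months, 0.919% ± 0.0514 in control at 10 months, 0.897% ± 0.0697 in KI at 3 months and 0.884% ± 0.0332 in control at 3 months (SD, n = 5 each). These ranges overlapped between all groups.

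The pathway genes were set beside other coding genes, in classes of the deposited gene length, in each library. For each library the median over genes of log2 CPM minus the gene's mean was taken. For the 87 genes it lay between -0.0040 and 0.13 in KI at 10 months, between -0.09 and 0.11 in control at 10 months, between -0.24 and 0.10 in KI at 3 months and between -0.08 and 0.05 in control at 3 months. The highest library of control at 3 months, replicate 10, was at 0.05 for the pathway genes and at -0.02 for other coding genes under 1000 bases. The library at -0.24, KI replicate 3 at 3 months, stood at -0.41 for the cytosolic ribosomal protein genes, at -0.28 for other coding genes under 1000 bases and at 0.11 for coding genes over 4000 bases. Among the subgroups of pathway genes its lowest median was that of the c ring genes, at -0.72. The age comparison in KI had a gradient with deposited gene length. The median log2 fold change of coding genes outside the pathway was 0.12 under 1000 bases, 0.06 from 1000 to 2000, 0.02 from 2000 to 4000 and -0.06 over 4000 bases. Among the pathway genes in the same classes it was 0.13, 0.12, 0.11 and 0.06, and the class over 4000 bases held 9 genes. By the GENCODE median of coding transcripts none of these 9 exceeded 2675.5 bases (Atp5g1), so that class does not show long pathway transcripts. Of 79 cytosolic ribosomal protein genes, 31 rose with age in KI, where 5.66% of all tested genes rose, with a median of 0.25. The part of transcript length or RNA quality in the called genes was not tested.

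**Figure D4:**
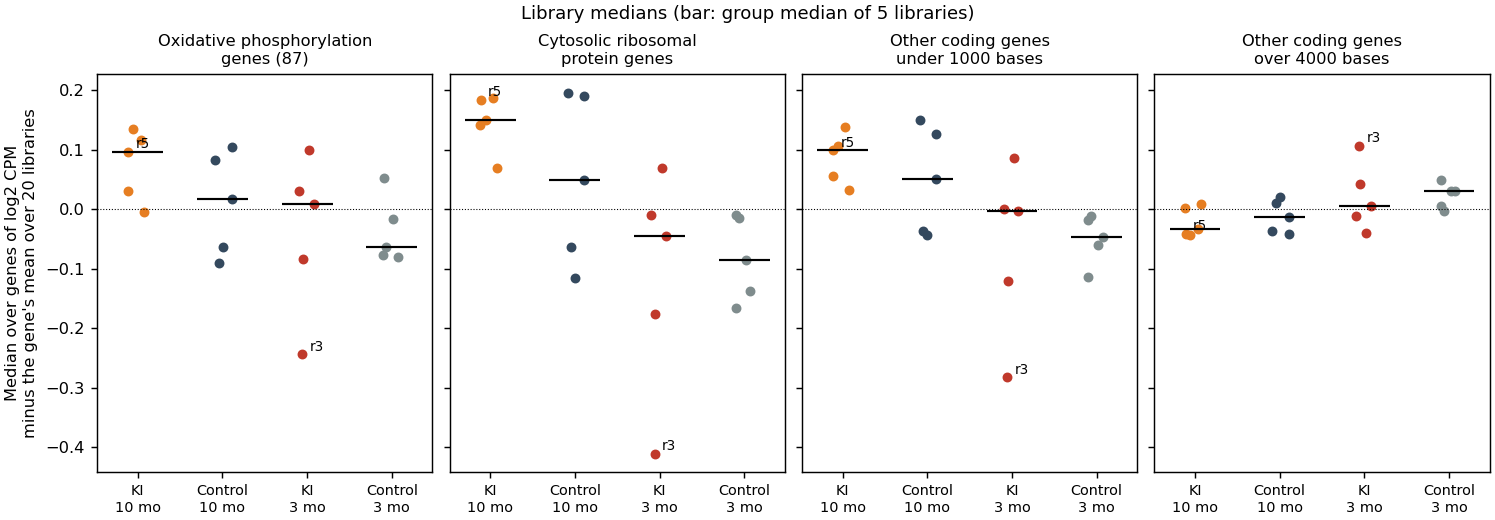
Median over genes of log2 CPM, after subtracting each gene's mean over 20 libraries, for the 87 pathway genes, the cytosolic ribosomal protein genes and other coding genes of short and long deposited length. Points are libraries, bars are group medians, and r3 and r5 mark KI replicate 3 at 3 months and KI replicate 5 at 10 months. Replicate 3 is lowest in the panels of pathway, ribosomal and short genes and highest in that of long genes.

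Genes around the pathway were followed in lists, whose counts stand beside 5.66% of all tested genes that rose and 2.41% that fell with age in KI, and 4.07% called with age in control. Of 41 tested assembly factors outside the naming rule, 2 rose with age in KI: Pet100, which helps build complex IV, by 0.34 ± 0.07 on the log2 scale (edgeR adjusted p = 0.00384), and Sdhaf1, which helps fit iron-sulfur clusters into complex II, by 0.34 ± 0.08 (adjusted p = 0.00752). Of 19 tricarboxylic acid cycle genes, Suclg2, a subunit of the GTP-forming succinyl-CoA ligase, rose by 0.32 ± 0.07 (adjusted p = 0.00434). Of 19 tested regulators of mitochondrial biogenesis, the coactivator gene Ppargc1b fell by 0.76 ± 0.20 (adjusted p = 0.0225). Of 11 genes for ATP export and carriers, Ucp2, an uncoupling protein family member known in brain mainly from microglia, rose by 1.00 ± 0.18 in KI (adjusted p = 0.00113) and by 0.82 ± 0.18 in control (adjusted p = 0.00887), beside the microglial rise given above. Of 8 tested subunits and electron carriers named outside the pattern, 2010107E04Rik rose by 0.34 ± 0.10 in KI (adjusted p = 0.0349). None of 11 genes of coenzyme Q synthesis, 15 of supercomplexes and cristae or 8 of mitochondrial oxidative stress was called in KI with age. In KI against control at either age none of these lists had a called gene, and Ucp2 was the only one called with age in control.

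The low isoforms of complex IV differed more between libraries than between groups. None of the 7 tested ones was called in any comparison. Cox8b ran from 0.0718 to 1.5 CPM, and its level was set beside that of Ttr, the transthyretin gene that marks choroid plexus. Over the 20 libraries this pair had the highest Pearson r, 0.79, of 21 relations of isoforms and markers. Ttr fell into separate ranges of 13.9 to 50.7 CPM in 7 libraries and 124 to 2036 CPM in 13, so the relation was taken within each. Among the 13 libraries, log2 CPM of Cox8b and Ttr had a Pearson r of 0.64 (permutation p = 0.0166, adjusted 0.0332 over both ranges) and a Spearman rho of 0.60 (permutation p = 0.0328, adjusted 0.0656). The adjustment leaves out that the pair was picked from 21 and the ranges were set after the values were seen. Without the 2 libraries farthest from the median of Ttr, r was 0.45, so the relation rests partly on those. Among the 7 libraries r was -0.20 (exact permutation p = 0.658) and rho -0.25 (exact p = 0.595). The summed choroid plexus markers ran from 33.4 to 1368 CPM in KI at 10 months, 35.6 to 2200 CPM in control at 10 months, 71.0 to 2327 CPM in KI at 3 months and 59.0 to 1469 CPM in control at 3 months. Their medians were 45.4 CPM in KI and 862 CPM in control at 10 months, and 846 CPM in control at 3 months. The Cox8b log2 fold change of -1.07 ± 0.66 in KI against control at 10 months thus stands beside unequal medians. That of 1.12 ± 0.67 at 10 against 3 months in control stands beside similar medians with wide ranges. The part of choroid plexus content in these differences was not tested.

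Ndufa4l2 ran from 0.757 to 1.61 CPM and varied with Pdgfrb, a receptor gene of pericytes and other mural cells. Over the 20 libraries log2 CPM of Ndufa4l2 and Pdgfrb had a Pearson r of 0.63 (permutation p = 0.00297, adjusted 0.0312 over 21 relations of isoforms and markers) and a Spearman rho of 0.69 (permutation p = 0.00121, adjusted 0.0127). Without the 2 libraries farthest from the median of Pdgfrb r was 0.65, and with each group centred on its mean it was 0.74. Cox4i2, the other isoform known from pericytes, had an r of 0.56 with Pdgfrb (permutation p = 0.0106, adjusted 0.0743), which misses the threshold, and 0.80 with groups centred. Cox6a2, known in brain from parvalbumin interneurons, had an r of 0.50 with Pvalb (permutation p = 0.0263, adjusted 0.138), and 0.51 with groups centred. Its r with Pdgfrb was 0.47 (permutation p = 0.0372, adjusted 0.156), and 0.68 with groups centred. The muscle isoform Cox7a1 had an r of 0.45 with Pdgfrb (permutation p = 0.0492, adjusted 0.169), and 0.55 with groups centred. None of these 3 relations passed the correction. The isoforms and markers for these relations were chosen after their levels were seen. No main isoform was among the 21 relations. In KI at 3 months Pdgfrb had 22.5, 26.3, 27.6, 31.3 and 33.2 CPM in replicates 3 to 7. Cox4i1 had the same order there, at 195, 269, 312, 355 and 377 CPM. In the other groups their orders were not identical. Whether the relation with Pdgfrb is particular to the low isoforms was not tested.

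**Figure D5:**
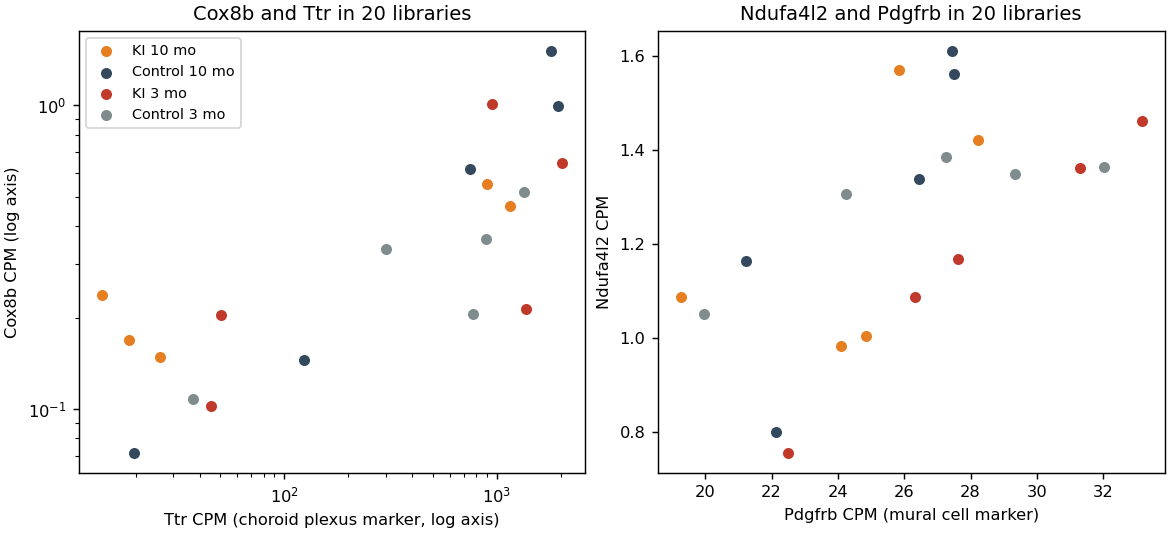
CPM of Cox8b against Ttr (log axes) and of Ndufa4l2 against Pdgfrb (linear axes) in each of the 20 libraries, coloured by group. Libraries with Ttr at 50.7 CPM or lower have Cox8b at 0.237 CPM or lower, and groups are mixed along both axes.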

How the data were processed

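Per the labels' protocols, cortex RNA was isolated with TRIzol followed by a DNase-treated column and sequenced on an Illumina HiSeq. Raw gene counts of the 20 libraries were deposited by the authors in a single table, with gene length, coordinates, symbol and biotype. The submitters' processing notes name mm10. Aligner, counter and strand setting are not given in the sources used here, so counts of overlapping genes are uncertain. Of the 88 genes, 39 overlap another gene, 22 share over 10% of their 50-base stretches with another gene, and Atp5l shares over 50%.

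The test of counts was that of edgeR 4.0.16 (R 4.3.3): filterByExpr (19623 genes left), TMM scaling, a robust quasi-likelihood fit of 4 group means over all 20 libraries, 6 contrasts, Benjamini-Hochberg adjustment over all genes tested, and calls at 0.05. The fit was tested on simulated data. CPM are counts scaled to a fixed total by the TMM-adjusted library size. Log2 fold changes are given ± SE and CPM ± SD. Correlations used log2(CPM + 0.05), with 100000 permutations or, for the 7 libraries of low Ttr, exact enumeration. Pairwise chi-square of counts between replicates of a group was at least 11.4 per gene, so no library was treated as a repeat. Summed over genes, counting error was therefore small beside the spread between libraries, but not for genes of few counts such as Cox8b and Cox7b2.

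Named genes are every called gene, the smallest p per complex in each genotype comparison, the highest and lowest level per complex, core subunits and isoforms, of which 1 core subunit is not reported here. Cell type marker lists and pathway lists were described by counts. The pathway genes, lists and tests were chosen with earlier results of these data known, and the ribosomal protein and length classes and the Ttr ranges after the values were seen. Alternatives were DESeq2 1.42.0, limma-voom (limma 3.58.1), RLE scaling, no filter, a minimum of 1 CPM, a threshold of 0.10, only the compared libraries, a replicate block, and leaving out libraries. Replicate numbers are shared between groups of a genotype and in part between genotypes.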

Additional observations from a re-analysis of the deposited data

Results flagged for a closer look

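Of 180 sets of 5 libraries examined for a sample far from the others, 4 had one, and chance sets apart about 1 in 20. Atp5sl at 3 months in KI was lowest in replicate 3, at 25.1 CPM. In control at 3 months, replicate 10 was the highest library for Cox8a, at 177.4 CPM, and for Ndufb5, at 93.5 CPM, and the lowest for Ndufa4l2, at 1.05 CPM. This control library is 1 of the 2 with over 50 counts of Shox2.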

How the results depend on the processing

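Every alternative called 0 genes in the 5 comparisons other than 10 against 3 months in KI. For members called at 10 against 3 months in KI, where 7 were called, RLE scaling gave 7, DESeq2 8, and limma-voom and the minimum of 1 CPM 10 each. A threshold of 0.10 gave 12, no low-count filter gave 2, and only the compared libraries gave 0. Leaving out 1 library at a time gave 1 to 9, and without KI replicate 3 at 3 months and KI replicate 5 at 10 months together, an alternative chosen after seeing the data, it was 1. The replicate block gave 1, but libraries with the same number did not deviate together (3 of 18 same-number pairs correlated above 0.1, and 1 of 20 libraries correlated best with its own number), so the numbers were not taken to pair them. Where these counts differ by settings other than the number of libraries or genes, the cause was not tested. Of the called genes, Atp5e lost its call under 1 alternative, only the compared libraries (adjusted p = 0.0589), while Ndufa4 lost its call under 11. Over all values and alternatives, 4692 of 4852 were labelled the same. For a called gene this meant the same direction and call. For an uncalled gene it meant no call and a shift smaller than its SE, whatever the sign, and counts of called genes could differ somewhat. Of the called values 0 changed sign, and 409 uncalled values did. Counting error limits the genes of few counts, Cox8b and Cox7b2 among them. Leave-one-out fits keep the shared spread of the other groups.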
